A study of Rattus norvegicus with 4 samples.

Results

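The genes described here are Ciita, RT1-Ba, RT1-Bb, RT1-Da, RT1-Db1, RT1-DMa, RT1-DMb and Cd74, that is, the chains of the rat MHC class II molecules, their peptide editor, their invariant chain and the factor that switches them on. They were taken by name, with every probe set whose single symbol in the platform's annotation is one of them, and they are 8 of the 10411 genes so named on the array. They have 11 probe sets. The one with the highest mean signal stands for a gene that has several. RNA came from the visceral fat of male Wistar rats aged 130 days, on 2 arrays labelled control and 2 labelled obese. The labels give no further genotype, diet or treatment for either group, and do not state how obesity arose and how many animals went into a sample. Every p-value given here thus rests on the spread among 4 samples that may not be independent animals.

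MHC class II molecules are surface heterodimers of an alpha and a beta chain that show peptides from the endosome to CD4+ T cells. Dendritic cells, macrophages and B cells make them at rest, and other cells, among them adipocytes, can be induced to make them by interferon-gamma. CIITA binds no DNA itself and acts through the RFX, CREB and NF-Y proteins that sit on the conserved S, X and Y boxes of class II promoters. The invariant chain, Cd74, fills the groove of new class II dimers, and DM removes its remnant so that a peptide can bind.

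The promoters of the genes are shown because those boxes are what the members of the family share in sequence. The RefSeq table of rat promoters (build GRCr8, 250 bases before to 50 after a start) held 6 of the 8 genes, all but Ciita and RT1-DMb. In 5 of the 6, the letters GNNAC, the core of an X box, were followed by GATTGG, a Y box that contains the reverse of CCAAT, with their first bases 31 or 32 apart. Both are in capitals below, on the strand of the gene. Cd74 did not hold this pair, and its line shows in capitals a GNNAC and, 27 bases on, a CCAAT on the gene's own strand.
RT1-Ba, chr20:4576951-4577024, plus strand: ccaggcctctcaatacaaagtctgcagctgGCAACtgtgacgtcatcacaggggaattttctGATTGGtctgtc
RT1-Bb, chr20:4604169-4604241, minus strand: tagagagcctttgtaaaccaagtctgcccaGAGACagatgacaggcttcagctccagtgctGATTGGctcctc
RT1-Da, chr20:4515303-4515376, plus strand: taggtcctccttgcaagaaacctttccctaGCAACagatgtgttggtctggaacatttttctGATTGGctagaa
RT1-Db1, chr20:4560232-4560304, minus strand: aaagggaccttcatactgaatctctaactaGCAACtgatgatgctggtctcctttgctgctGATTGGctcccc
RT1-DMa, chr20:4712389-4712462, minus strand: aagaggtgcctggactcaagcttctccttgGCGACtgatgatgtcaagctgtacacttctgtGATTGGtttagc
Cd74, chr18:56526960-56527027, plus strand: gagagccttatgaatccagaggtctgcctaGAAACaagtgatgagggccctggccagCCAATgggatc

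Searched on both strands of all 33469 promoters of 300 bases in the table, the pair was found in 0.394%, GATTGG alone in 14.8% and CCAAT alone, which GATTGG contains in reverse, in 37.5%. The longer form GNNACNGATG, followed by GATTGG at the same spacing, was found in 4 promoters (0.012%), those of RT1-Bb, RT1-Da, RT1-Db1 and RT1-DMa. These patterns were written down after the members' promoters had been read, so the shares are a description. The pair is not limited to class II. B2m, the light chain of class I molecules, holds it as well:
B2m, chr3:129549203-129549276, plus strand: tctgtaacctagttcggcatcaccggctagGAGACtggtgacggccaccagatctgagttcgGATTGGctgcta
Of the genes with the pair that are no members, 43 were tested, and their median log2 difference between obese and control tissue was 0.0022. Of the 43, 11 were lower and 9 higher without overlap of the groups, where 24.4% and 15.6% of all tested probe sets were so. A match of letters does not show that a protein was bound there.

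Signals are intensities on a linear scale, scaled by the authors so that every array had the same trimmed mean, 150.03. All 11 probe sets of the class II genes lay above the floor of 20.8 on all 4 arrays. For log2 differences, signals under the floor were set to it, while overlap of the groups was judged on the signals before this step. Over the 12929 probe sets tested, Pearson's r between log2 signals was 0.976 within the control pair, 0.966 within the obese pair and 0.961 to 0.969 across groups, a description of arrays that share their probes. Control probes at the 3' end were 1.05 to 1.19 times as bright as those at the 5' end for actin, and 0.952 to 1.04 times for GAPDH. The number of arrays, 2 in each group, limits the precision, and an exact permutation test of a single gene was not run because 2 against 2 cannot reach a p of 0.05.

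All 8 class II genes had lower signals on both obese arrays than on either control array. Groups that did not overlap in this direction were found for 24.4% of all tested probe sets, and in the opposite direction for 15.6%. With each array centred on its median those shares were 16.9% and 21.8%, and the 8 genes still did not overlap. The log2 differences ran from -0.74 for Ciita to -0.33 for Cd74, with a median of -0.56 against -0.044 over all tested probe sets. The 3 second probe sets, of RT1-Ba, RT1-Bb and RT1-Db1, were also lower without overlap.

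In limma's moderated test across all probe sets, 0 of the 8 genes passed at an adjusted p of 0.05 (adjusted p between 0.402 and 0.624), and neither did any other probe set, so that 0% were called. Unadjusted, 1073 probe sets had a p under 0.05 in limma. Without the variance trend 1 probe set passed, and with robust moderation 1. Of the 8 genes, 6 had an unadjusted p under 0.05 and a lower signal in obese tissue, where 5.23% of all tested probe sets did. A difference of at least 1.25-fold without overlap, which all 8 genes had, was seen for 11% of tested probe sets. That cut-off lies just under the folds of Cd74 (1.258) and RT1-Da (1.265), so the count of 8 depends on it. With median centring Cd74 and RT1-Da, at log2 differences of -0.25 and -0.26, fell short of it. They also did so without obese replicate 1, at -0.29 and -0.24, and without control replicate 2, at -0.30 and -0.31. With quantile normalization they did not, at -0.38 and -0.40. The genes were chosen with earlier results of these data known, so these counts describe them and do not support their choice.

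**Figure D1:**
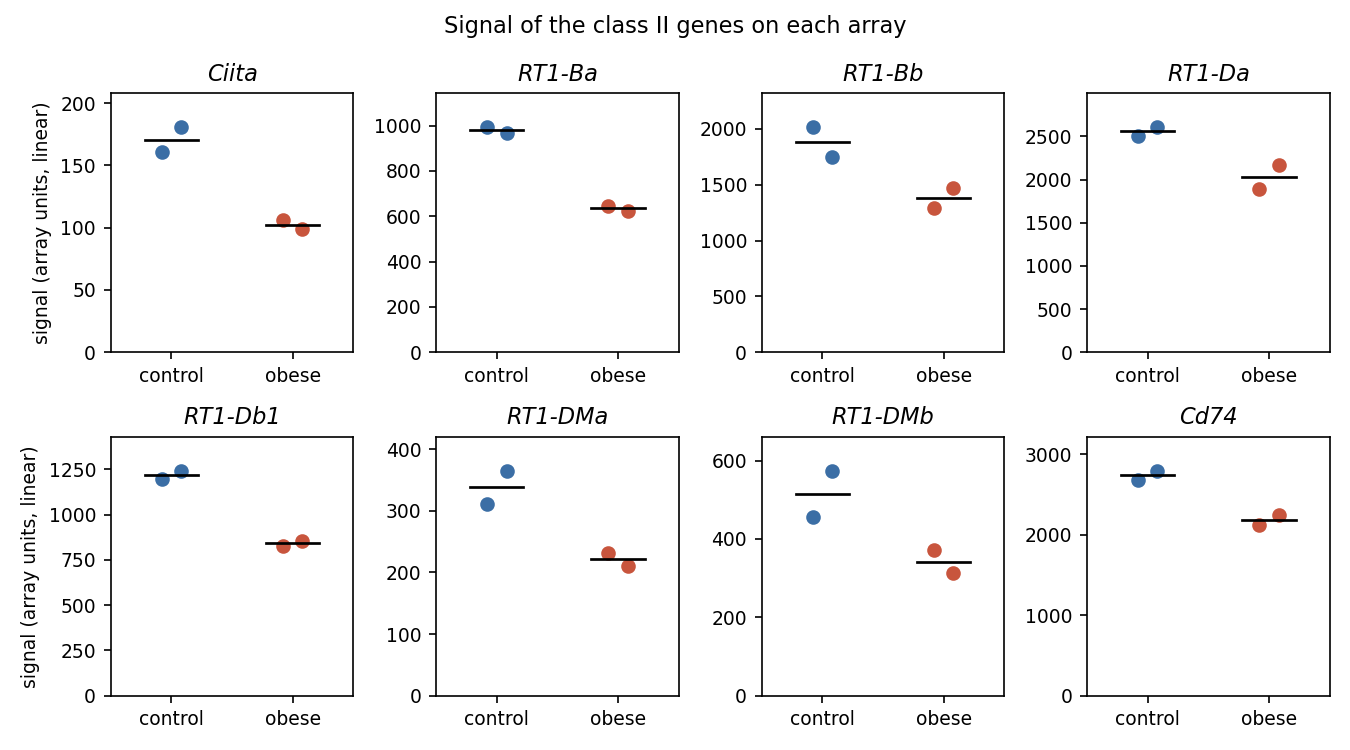
Signal of each class II gene (main probe set, linear array units, axis from 0) on the 2 control and 2 obese arrays. Points are arrays and bars are group means; in each of the 8 panels both obese points lie below both control points, for example 106.1 and 98.6 against 160.6 and 180.6 for Ciita.

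The transactivator Ciita lies on chromosome 10 (GRCr8, 5646854 to 5694393), apart from the genes it controls. Its signal was 160.6 and 180.6 on the control arrays and 106.1 and 98.6 on the obese arrays. The obese values lay close together and well below the lower control value. The log2 difference was -0.74 ± 0.16 (SE), or 1.67-fold lower in obese tissue, with a 95% interval of -1.12 to -0.35 (limma adjusted p = 0.402). Its probe set covers several transcripts of the gene, so the cell-type-specific first exons of Ciita, which start from separate promoters, were not told apart.

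RT1-Ba and RT1-Bb encode the alpha and beta chain of RT1.B, the rat counterpart of human HLA-DQ. RT1-Ba had signals of 992.5 and 967.7 in control and of 645.8 and 622.5 in obese tissue. Replicates of a group differed by at most 0.053 on the log2 scale, against a difference between groups of -0.63 ± 0.12 (limma adjusted p = 0.402). This was the smallest unadjusted p among the 8, 0.0021. Its second probe set gave 264.7 and 310.6 against 190.4 and 230.7, a log2 difference of -0.45 ± 0.16, with a wider spread inside each group.

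For RT1-Bb the control signals were 2014.7 and 1748.9 and the obese signals 1295 and 1471.8. The 2 arrays of a group differed more here than for RT1-Ba, and the gap between the lowest control and the highest obese value was 0.25 on the log2 scale. The log2 difference was -0.44 ± 0.15 (limma adjusted p = 0.555). A second, dim probe set of RT1-Bb, at 34.2 and 40.6 against 31.9 and 27.6, gave -0.33 ± 0.21, and -0.20 without control replicate 2.

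RT1-Da and RT1-Db1 encode the chains of RT1.D, the counterpart of HLA-DR. The alpha chain gene RT1-Da gave 2510.1 and 2606.8 in control and 1890.1 and 2164.5 in obese tissue, a log2 difference of -0.34 ± 0.15 (limma adjusted p = 0.624). Its 95% interval, -0.71 to 0.032, includes 0. The beta chain gene RT1-Db1 gave 1196.5 and 1243 against 827.2 and 854.9, a log2 difference of -0.54 ± 0.12 (limma adjusted p = 0.457), with replicates within 0.055 of each other on that scale.

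The second probe set of RT1-Db1, at 265.3 and 231.2 against 124.1 and 158.2, showed the widest difference of the 11, -0.82 ± 0.18 (1.77-fold lower in obese tissue). The first is of a type whose probes may also match related transcripts. The neighbouring beta chain gene RT1-Db2 has no probe set of its own under that name, so the share of either signal that belongs to RT1-Db1 is uncertain. The RT1 genes also vary between rat haplotypes. The labels give no haplotype, and the match of the probes to the animals' alleles was not tested.

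RT1-DMa and RT1-DMb encode the DM dimer, which stays in endosomes and exchanges the invariant chain's remnant for peptide. RT1-DMa had signals of 311.9 and 365.1 in control and of 232 and 210.4 in obese tissue, a log2 difference of -0.61 ± 0.14 (limma adjusted p = 0.467). RT1-DMb had 456.1 and 573.9 against 370.6 and 312.3, a log2 difference of -0.59 ± 0.17 (limma adjusted p = 0.511). For both genes control replicate 2 was the highest array and obese replicate 2 the lowest. The 2 control values of RT1-DMb were 0.33 apart on the log2 scale, the widest gap inside a control group among the main probe sets.

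Cd74 is expressed with the class II chains and gave 2687.4 and 2797.8 in control and 2118.8 and 2242.4 in obese tissue. Both pairs were tight, and the groups were 0.26 apart at their nearest values on the log2 scale. The difference was -0.33 ± 0.14, or 1.26-fold lower in obese tissue, with a 95% interval of -0.68 to 0.022 (limma adjusted p = 0.621). Ciita had the widest and Cd74 the narrowest difference of the 8 main probe sets, but the 95% intervals of all 8 shared the range from -0.68 to -0.35. No gene was compared with another within the arrays, so the order of the genes was not tested.

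**Figure D2:**
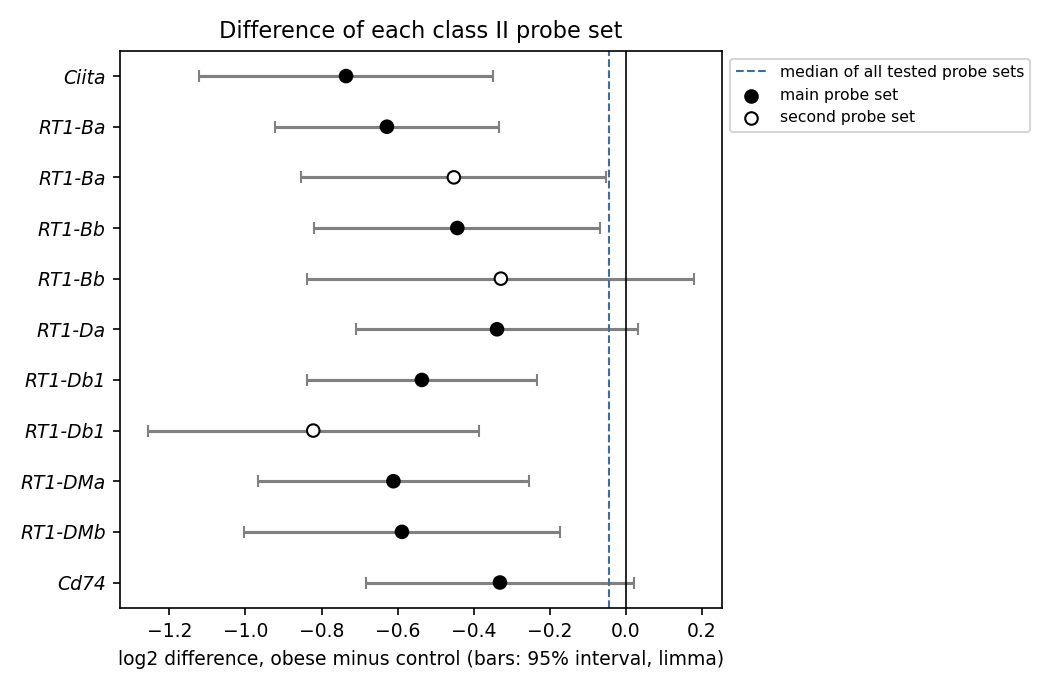
Log2 difference, obese minus control, of the 11 class II probe sets, with 95% intervals from limma; filled points are main and open points second probe sets, and the dashed line is the median of all tested probe sets (-0.044). All 11 points lie below 0, and 3 intervals, of RT1-Da, Cd74 and the second probe set of RT1-Bb, cross it.

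All 8 genes but Ciita and Cd74 lie within 196.9 kb of chromosome 20 (GRCr8, 4515393 to 4712335), and 4 tested genes of the class I pathway lie among these 6. These are Tap1 and Tap2, which encode the peptide transporter, and Psmb8 and Psmb9, which encode immunoproteasome subunits. Their log2 differences were -0.018 ± 0.16, -0.33 ± 0.23, -0.19 ± 0.13 and -0.20 ± 0.22 (limma adjusted p between 0.732 and 0.985). Of the 4, only Psmb8, at 278.6 and 283.4 in control and 254.1 and 237.9 in obese tissue, had groups that did not overlap, as all 6 class II genes around them had. The difference between these sets of genes was not tested.

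The proteins through which CIITA acts on a promoter were tested for 7 of 10 listed genes, of which 3 were lower in obese tissue without overlap and 0 higher. For this list and those below, the shares over all tested probe sets were 24.4% lower and 15.6% higher without overlap. The 7 promoter factor genes had a median log2 difference of -0.15, and 0 passed the threshold in limma (adjusted p between 0.526 and 0.931). Creb1, whose product binds the X box with RFX, had a signal of 126.6 ± 0.78 (SD, n = 2) in control and 87.3 ± 11.9 in obese tissue, a log2 difference of -0.54 ± 0.18. Averaged over all probe sets of Creb1, the difference shrank to -0.38. For its main probe set, leaving out a single array moved the value to between -0.68 (obese replicate 1 removed) and -0.40 (obese replicate 2 removed). The acetyltransferase gene Kat2b gave 0.18 ± 0.19, with -0.064 without control replicate 2 and 0.42 without control replicate 1. Rfx5, a subunit of RFX that falls outside the rule for named genes and was added after its values were seen, gave 273.8 and 243.4 against 228.5 and 213.2, a log2 difference of -0.23 ± 0.14.

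On the interferon-gamma route to Ciita, 5 of 10 listed genes were tested, with 4 lower and 1 higher without overlap and a median of -0.32 (0 passed in limma). The transcription factor gene Irf1 had a signal of 372 ± 69.1 in control and 240 ± 5.23 in obese tissue, a log2 difference of -0.62 ± 0.16. Ifngr1, the ligand-binding chain of the receptor, differed by 0.18 ± 0.13, or 0.10 without obese replicate 2 and 0.11 with quantile normalization. The gene of interferon-gamma itself, Ifng, lay under the floor on all 4 arrays, at 7.3 to 8.8, as did Irf2 and Socs1, so that no difference was measured for them. Of the factors that act on Ciita in blood cells, 2 of 4 listed genes were tested and both were lower without overlap. Irf8 had 320.1 ± 8.63 in control and 137.8 ± 21.4 in obese tissue, a log2 difference of -1.22 ± 0.16 (limma adjusted p = 0.269), and Prdm1, a repressor of Ciita in plasma cells, gave -0.45 ± 0.26. The value for Prdm1 was -0.17 without control replicate 2, -0.28 without obese replicate 2 and -0.73 without control replicate 1. Its groups barely failed to overlap, with 68.4 on control replicate 1 against 68.2 on obese replicate 1.

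Endosomal processing genes, which trim the invariant chain and the antigens, were mixed. Of 12 listed and tested, 3 were lower and 1 higher without overlap, where 24.4% and 15.6% of all tested probe sets were so. Their median was -0.18, with 0 past the threshold in limma. Ifi30, the thiol reductase that opens disulphide bonds of antigens, had 797.4 ± 98.4 in control and 489.8 ± 47.4 in obese tissue, a log2 difference of -0.70 ± 0.15 (limma adjusted p = 0.402). The protease inhibitor gene Cst3, the 1 that was higher without overlap, gave 0.15 ± 0.16, with 0.0060 without obese replicate 2 and 0.29 without obese replicate 1. Its groups barely failed to overlap, with 2042.5 on obese replicate 1 against 2035.8 on control replicate 1. Cathepsin B, Ctsb, gave 0.070 ± 0.17, with -0.094 without obese replicate 2 and 0.23 without obese replicate 1.

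Class I presentation genes had a median log2 difference of -0.0065 over 21 of 24 listed genes, with 0 past the threshold in limma. Without overlap, 4 were lower and 2 higher, where 24.4% and 15.6% of all tested probe sets were so. B2m had signals of 3266 ± 123 in control and 3471 ± 395 in obese tissue, a log2 difference of 0.084 ± 0.17 that turned to -0.032 without obese replicate 2 and to -0.019 with cyclic loess. Fcgrt, the class I-like receptor of immunoglobulin G, had 1148 ± 6.58 against 757 ± 32.5, a difference of -0.60 ± 0.12 (limma adjusted p = 0.402). Cd1d1, which presents lipids, gave 0.85 ± 0.47 with overlapping groups and control replicate 1 under the floor. It was 0.12 without that array, 1.58 without control replicate 2 and 0.15 when the floor was raised to the 40th percentile. Class I heavy chain genes of the rat are near-identical copies, so their separate signals are uncertain and are not given. Those tested are still part of the median and counts above, with RT1-M3-1 among the lower and RT1-T24-4 among the higher genes without overlap.

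Among costimulatory and responding molecules, 5 of 9 listed genes were tested, with 3 lower and 0 higher without overlap and a median of -0.38 (0 passed in limma). That median is the value of Ctla4, 1 of the 3, at 28.2 and 30.3 in control and 24.3 and 12 in obese tissue. Its last signal lay under the floor. Cd40 lay above the floor on control replicate 1 and obese replicate 2 alone, at 24.9 and 40.7. Cd4, the co-receptor that binds class II molecules and that rat macrophages carry as well as T cells, had signals of 569.1 and 540.8 in control and of 303.2 and 270.1 in obese tissue. Its log2 difference was -0.96 ± 0.13 (limma adjusted p = 0.273). The adhesion molecule gene Icam1 gave 0.18 ± 0.15 with overlapping groups, and between 0.054 (without control replicate 1) and 0.30 (without control replicate 2) with an array left out.

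**Figure D3:**
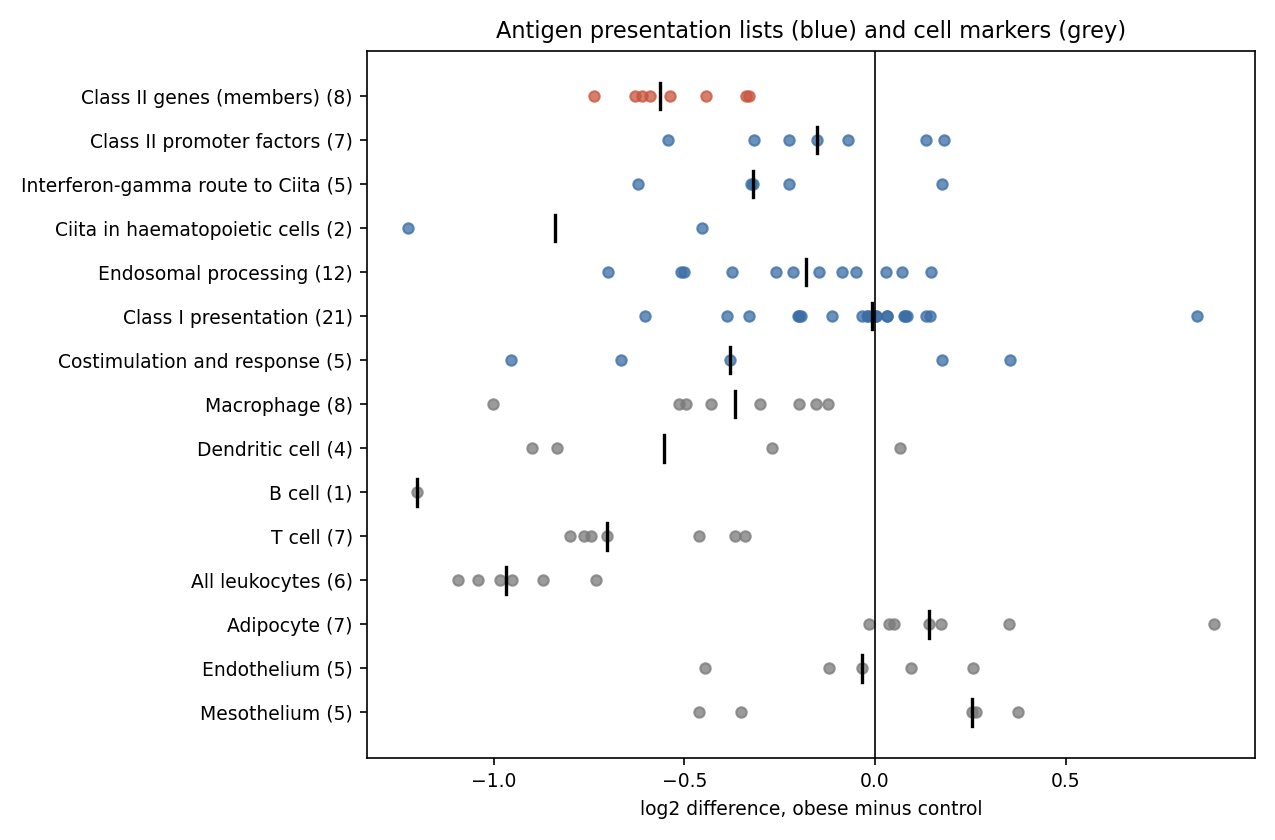
Log2 difference, obese minus control, of each tested gene of the class II group (red), of the antigen presentation lists (blue) and of the cell marker lists (grey), with the number of tested genes in brackets and list medians as black bars. The class II median is -0.56, that of class I presentation -0.0065 and that of the genes shared by all leukocytes -0.97.

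Markers of the cells that carry class II molecules were measured on the same arrays, and 0 of them passed the threshold in limma. In bulk tissue, fewer cells of a type and less RNA per cell cannot be told apart. Genes shared by all leukocytes were lower without overlap for 6 of 6, with a median log2 difference of -0.97 and a summed signal of 2520.2 and 3063.6 on the control and 1506.8 and 1274 on the obese arrays. Laptm5, a lysosomal protein of blood cells, differed by -1.09 ± 0.14 (limma adjusted p = 0.269), the actin-bundling gene Lcp1 by -1.04 ± 0.26 and the phosphatase Ptpn6 by -0.73 ± 0.22. Lcp1 was at -0.64 without control replicate 2, and Ptpn6 at -0.49 without obese replicate 2. Their part in the class II differences was not tested.

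Macrophage markers were tested for 8 of 12 genes, of which 6 were lower without overlap, with a median of -0.37 and a summed signal of 6202.3 and 7321 in control and 5396 and 5136.2 in obese tissue. None of the 8 lay at the floor in a group. Cd68 differed by -1.0 ± 0.27, or -0.60 without control replicate 2, and Lyz2 by -0.43 ± 0.20, or -0.22 without obese replicate 2 and -0.27 without control replicate 2. The monocyte receptor gene Cd14 gave -0.12 ± 0.14, and 0.0074 without obese replicate 1. Dendritic cell markers were tested for 4 of 10 genes, 3 of them lower without overlap, with a median of -0.55 and sums of 531.8 and 745.8 against 397.7 and 390. Clec9a, a receptor for dead cells on cross-presenting dendritic cells, had 59.1 and 72.8 in control and 36.8 and 33.6 in obese tissue (-0.90 ± 0.21), a difference that shrank to -0.26 when the floor was raised to the 40th percentile. The activation marker Cd83 differed by -0.83 ± 0.21, or -0.53 without control replicate 2. Ccl22 gave 0.065 ± 0.20, or -0.078 without control replicate 1 and 0.21 without control replicate 2. The part of either cell type in the class II differences was not tested.

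B cell markers could hardly be checked, since 2 of 9 were on the array under a single symbol. Cd37, which T cells and other leukocytes also carry, had 221.7 and 227.7 against 119.8 and 79.6, a difference of -1.20 ± 0.22, and the B cell receptor gene Cd79b lay above the floor on control replicate 1 alone, at 99.3, against 8.7 to 17.5 on the other arrays. T cell markers were lower for all 7 tested of 9, 3 of them without overlap, with a median of -0.70. That median is the value of Cd8a, 1 of the 3, at 53.2 and 21.5 in control and 18.2 and 13.7 in obese tissue. Cd8a was tested only because its control arrays lay above the floor. Its obese signals lay under it, so its difference depends on the floor. Cd3e was above the floor on control replicate 1 alone while Cd28 lay under it on all 4. The sum of the 7 T cell markers was 810.2 on control replicate 1 against 406.6 on control replicate 2 and 397.6 and 343.5 on the obese arrays. Cd5 differed by -0.75 ± 0.26, or -0.46 without control replicate 1. Lck differed by -0.76 ± 0.33, or -0.25 without control replicate 1 and -1.28 without control replicate 2. Cd3g gave -0.46 ± 0.39, which turned to 0.14 without control replicate 1 and was -1.06 without control replicate 2.

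The class II genes did not share that peak on control replicate 1. By the main probe set, 6 of the 8 had a lower signal on control replicate 1 than on control replicate 2, all but RT1-Ba and RT1-Bb. Of the second probe sets, that of RT1-Db1 was higher on control replicate 1, at 265.3 against 231.2, and those of RT1-Ba and RT1-Bb were lower. Without control replicate 1 the median difference of the 8 genes was -0.59. The part of T and B cells in the class II differences was not tested.

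Adipocyte markers were present on every array, with a summed signal of 12328 and 11964 in control and 12098 and 14511 in obese tissue and a median log2 difference of 0.14 over 7 of 9 genes. Of these, 0 were lower and 1 was higher without overlap, Plin1, the main coat protein of lipid droplets, at 0.35 ± 0.14, while adipsin, Cfd, gave -0.016 ± 0.15, a sign that turned without obese replicate 1 (0.023) and with median centring (0.063). Endothelial markers had a median of -0.035 over 5 of 7 genes, with Tie1 at -0.45 ± 0.13, Cldn5 at 0.26 ± 0.13 and Kdr at -0.12 ± 0.19, or 0.12 without obese replicate 1. Mesothelial markers, 5 of 6 tested, all overlapped. Their sum was 1629 on obese replicate 1 and 366.2 on obese replicate 2, against 787.1 and 949.4 in control tissue, so that Msln (-0.46 ± 0.56) and Krt8 (0.37 ± 0.61) turned sign when an obese array was left out, to 0.46 without replicate 2 and -0.61 without replicate 1. The class II genes showed no such gap between the obese arrays, and their centred median was -0.28 on obese replicate 1 and -0.29 on obese replicate 2.

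**Figure D4:**
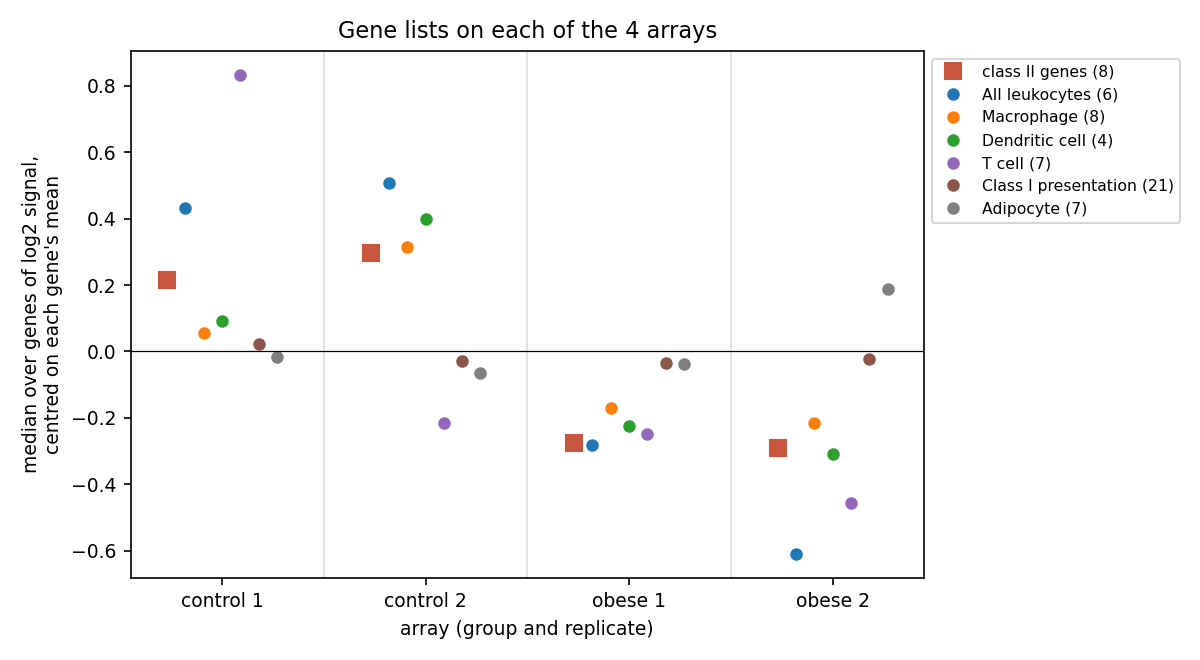
Median over the genes of a list of the log2 signal, centred on each gene's mean over the arrays, on each of the 4 arrays, for the class II genes (red squares) and 6 other lists, with the number of genes in brackets. Class II genes lie at 0.22 and 0.30 on the control and at -0.28 and -0.29 on the obese arrays; T cell markers are at 0.83 on control replicate 1 and at -0.22 on control replicate 2.

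Among 4966 other tested genes with a mean log2 signal above the median, those whose centred log2 values over the 4 arrays came nearest to the class II median were Yipf1, LOC102549726, Chtf8, Nrep, Men1 and Cnn2. Their Euclidean distances ran from 0.054 to 0.079 log2 units, where the class II genes themselves lay at 0.056 to 0.27 and the 4966 candidates at a median of 0.59. Yipf1, a Golgi membrane protein gene, had signals of 305.7 and 333.4 in control and 225.8 and 222.8 in obese tissue. Cnn2, an actin-binding calponin, had 411 and 407.5 against 278 and 272.2. The log2 differences of the 6 ran from -0.47 for Men1 to -0.59 for Nrep. Of the 4966 candidates, 188 lay no farther from the class II median than the farthest class II gene.

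**Figure D5:**
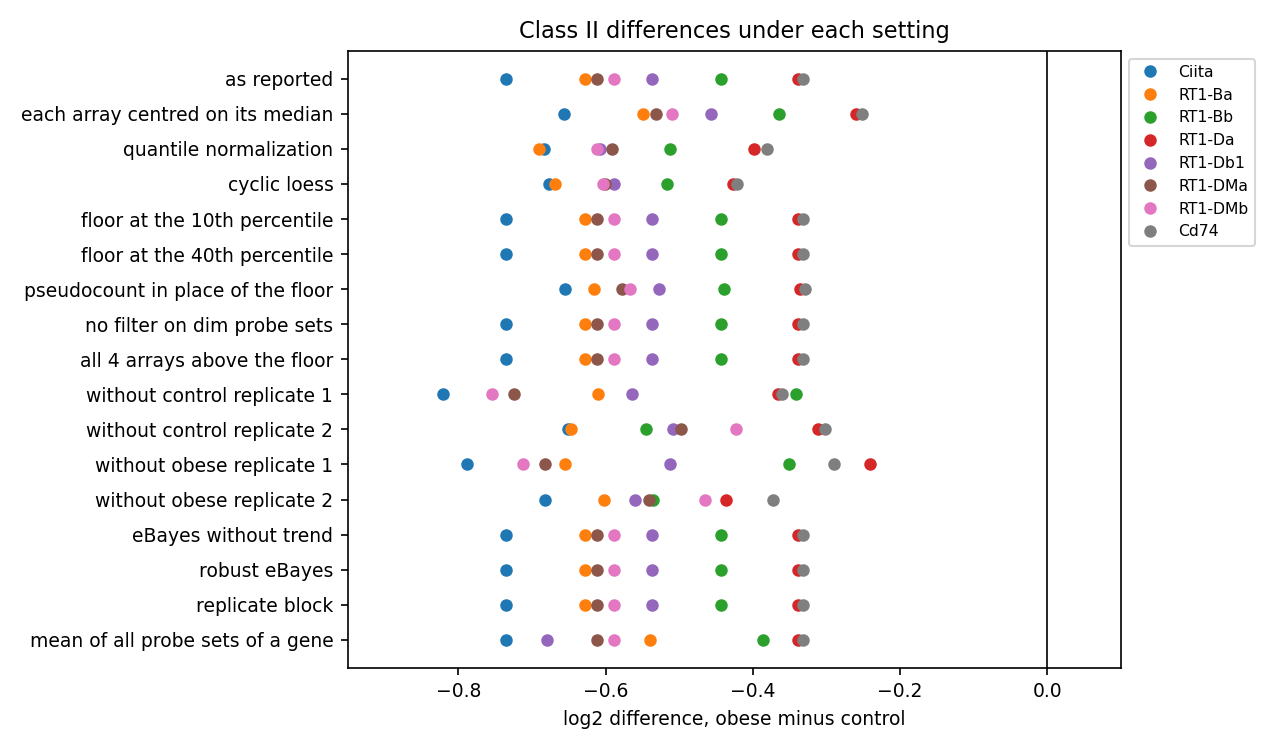
Log2 difference, obese minus control, of the 8 class II genes (main probe set, 1 colour each) as reported and under 16 other settings. All points lie below 0, from -0.82 (Ciita without control replicate 1) to -0.24 (RT1-Da without obese replicate 1).

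Under the 16 other settings the differences of the class II genes were recomputed 128 times, with 0 past the threshold in limma (adjusted p between 0.343 and, without control replicate 2, 0.949). All 128 were below 0, but since the groups did not overlap, the direction could turn only under the 3 scalings. Ciita ranged from -0.82 to -0.65 and RT1-Ba from -0.69 to -0.54. RT1-Bb ranged from -0.55 to -0.34, RT1-Da from -0.44 to -0.24 and RT1-Db1 from -0.68 to -0.46. For RT1-DMa the range was -0.72 to -0.50, for RT1-DMb -0.75 to -0.42 and for Cd74 -0.42 to -0.25.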

How the data were processed

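Total RNA of 4 samples was measured on 4 single-colour arrays, 2 per group by the labels' titles. The deposited table holds 1 linear intensity per probe set and array for 15923 probe sets. Which scanner and software were used is not stated in the labels. The authors' deposited intensities had equal trimmed means (2% off each end) on all arrays, which shows that they had been scaled, and they were taken unchanged. After 57 control probe sets were left out, 12783 of 15866 had 1 symbol in the platform's annotation, 312 several and 2771 none, and only the first were named. Entrez identifiers found 12748 of the symbols in a GRCr8 table, which changed 0.

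Signals under 20.8, the 20th percentile over the arrays, were set to it before log2 was taken. Probe sets above it on at least 2 arrays were tested (12929, of 9012 genes) with limma 3.58.1 in R 4.3.3 (lmFit, eBayes with trend, 5.83 degrees of freedom), as the two-sided difference of obese minus control, and p-values were adjusted over all of them by Benjamini-Hochberg. Errors of log2 differences are moderated standard errors, and other errors are SD. The code was tested on simulated data. No set test was run.

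The members, lists and tests were chosen with earlier results of these data known. Of each list, the genes with the largest and smallest t and the highest mean signal are named, with the 6 genes nearest in profile. The list of further class II genes (RT1-DOa, RT1-DOb, RT1-Db2, RT1-Ha) had 0 of 4 genes under a single symbol on the array. Alternatives were 3 scalings, 2 floors, a pseudocount of 16, 2 filters, 2 variance models, a replicate block, each array left out, and the mean of a gene's probe sets.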

Additional observations from a re-analysis of the deposited data

How the results depend on the processing

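All 8 class II genes were lower without overlap of the groups under the 3 scalings, the only settings that could have undone it, where 16.9% (median centring), 20.6% (quantile) and 20% (cyclic loess) of all tested probe sets were so. Their median log2 difference of -0.56 was -0.48 with each array centred on its median, and between -0.59 and -0.50 with 1 array left out. The lone array left in a group is judged by the spread of the other group. The 0 probe sets past the threshold over all genes became 3 with the pseudocount, 6 without a filter, 1 without the variance trend and 1 with robust moderation. The labels do not say that equal replicate numbers are paired, so the numbers were not taken to pair arrays. Over the tested probe sets, the difference between the control replicates had a correlation of 0.0482 with that between the obese replicates. With 2 possible pairs, this value cannot show whether the arrays were paired. With the replicate block 0 probe sets passed as well, and Ciita differed by -0.74 with a limma adjusted p of 0.451.

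Of 681 values recomputed for 40 other named genes and the second probe sets, 13 turned sign and 0 passed. With median centring Cfd turned to 0.063, and with cyclic loess Ctsb to -0.016 and B2m to -0.019. The others turned when an array was left out, and over the 4 arrays left out in turn the lowest and highest values were -0.064 and 0.425 for Kat2b, -0.094 and 0.234 for Ctsb, -0.032 and 0.200 for B2m, -0.254 and 0.0074 for Cd14, -0.078 and 0.208 for Ccl22, -1.06 and 0.143 for Cd3g, -0.056 and 0.023 for Cfd, -0.363 and 0.124 for Kdr, -0.609 and 1.36 for Krt8, and -1.38 and 0.460 for Msln. The cause was not tested. Signals near the floor of 20.8, such as the second probe set of RT1-Bb, have the least signal over background.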
